A study of Homo sapiens and Mus musculus with 92 samples.

Results

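The enzymes that build heme are described here through 8 genes, ALAS1, ALAS2, ALAD, UROS, UROD, CPOX, PPOX and FECH, which were picked by gene symbol from the 28103 genes listed in each count table. All 8 had a row in both tables, and all 8 passed the filter on low values, a mean of at least 1 TPM (a level scaled to gene length and library size). HEL is an established human erythroleukemic cell line without MLL1 rearrangement, labelled as Human erythroblast. RNA-seq was performed in 2 separate experiments, each with its own control cells: 3 libraries of MLL1 KD cells against 3 of control cells, and 2 libraries of AF9 KD cells against 2 of control cells. MLL1, encoded by KMT2A, is a histone H3 lysine methyltransferase that binds promoters, and AF9, encoded by MLLT3, is a subunit of the super elongation complex. All KD cells carried 1 shRNA each, MLL1 shRNA #1 or AF9 shRNA #1, so that no other shRNA checks these results. The labels give the control cells as WT, while the study's methods name a control shRNA, and the labels do not say whether replicates were separate cultures, so the p-values measure the spread between these libraries.

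Heme synthesis starts in the mitochondrion, where ALA synthase joins glycine and succinyl-CoA into 5-aminolevulinic acid. ALAS1 is the form of ALA synthase found in most cells, where heme represses it, and ALAS2 is the erythroid form, which is a target of GATA1 and whose translation is restrained when iron is scarce. ALAD, UROS and UROD carry the pathway through the cytosol to coproporphyrinogen, and CPOX, PPOX and FECH complete it in the mitochondrion, where FECH inserts iron into protoporphyrin. Inherited defects of ALAS2 cause X-linked sideroblastic anemia, and those of the later enzymes cause porphyrias.

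The 21-base targets of both shRNAs are shown because every difference below was made with them. They were read from the study's list of shRNAs and located in the canonical GENCODE transcripts. The MLL1 target lies at bases 3011 to 3031 of the KMT2A transcript (16600 bases) and the AF9 target at bases 822 to 842 of the MLLT3 transcript (6724 bases). Against the transcripts of the 8 enzymes, the closest site to either target had 7 mismatches, in FECH for the MLL1 shRNA and in ALAD for the AF9 shRNA.
MLL1 shRNA #1: gcactgttaaacattccactt
AF9 shRNA #1: ttcaaagcctcacaaattaat

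Promoters of 7 of the 8 enzymes, from 250 bases before to 50 bases after the RefSeq start on GRCh38.p14, were compared with 27305 promoters of the same length. The ALA synthase promoters differed in their CpG content: that of ALAS2 held 3 CpG sites and that of ALAS1 held 27, beside a median of 14 over all promoters. Only 19.0% of all promoters held fewer CpG sites than that of ALAS2. The other 5 held 13 (UROD), 25 (PPOX), 28 (ALAD), 31 (CPOX) and 34 (FECH). GATA motifs, searched on both strands as GATA preceded by A or T and followed by A or G, were present in ALAS2 (-127 to -122 from the start) and in CPOX (-207 to -202 and -125 to -120), and in 25.5% of all promoters. The CACCC motif, searched as CCACCC on both strands, had 2 overlapping matches in ALAS2 (-60 to -51) and 1 each in CPOX and PPOX, and was present in 33.4% of all promoters. None of the 7 held TATAAA on its own strand, which 7.71% of all promoters did. The NRF1 consensus was present in ALAS1 alone among the 7 and in 6.28% of all promoters. These matches are a description of letters and not of bound sites. The 250 bases before the start are printed for the ALA synthases, which behave differently in the data below, and for CPOX, the other member with GATA motifs. Sequences run 5′ to 3′ on the strand of the gene, and capitals mark the GATA motif, here on the opposite strand. ALAS1 lies on the plus strand (chr3:52197833-52198082), ALAS2 on the minus strand (chrX:55030978-55031227) and CPOX on the minus strand (chr3:98593612-98593861).
ALAS1: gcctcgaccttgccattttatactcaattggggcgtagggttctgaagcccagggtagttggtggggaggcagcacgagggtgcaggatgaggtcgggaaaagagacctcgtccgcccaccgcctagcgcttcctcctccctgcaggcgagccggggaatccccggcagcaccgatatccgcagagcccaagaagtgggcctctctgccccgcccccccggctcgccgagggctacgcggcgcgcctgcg
ALAS2: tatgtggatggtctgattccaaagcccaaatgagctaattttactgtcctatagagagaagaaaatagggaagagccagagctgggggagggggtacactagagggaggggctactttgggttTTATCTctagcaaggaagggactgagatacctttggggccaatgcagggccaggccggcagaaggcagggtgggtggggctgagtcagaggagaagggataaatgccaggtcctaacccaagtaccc
CPOX: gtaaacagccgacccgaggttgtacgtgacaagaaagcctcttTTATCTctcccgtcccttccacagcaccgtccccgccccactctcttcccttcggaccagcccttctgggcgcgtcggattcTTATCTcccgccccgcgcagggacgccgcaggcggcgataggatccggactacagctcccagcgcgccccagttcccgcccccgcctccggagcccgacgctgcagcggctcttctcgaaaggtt

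The authors deposited read counts per gene, with totals of 6966345 to 10380241 counts per library in the MLL1 experiment and 12278989 to 14232408 in the AF9 experiment. Levels are given as CPM (counts relative to the TMM-scaled library total) within a gene and as TPM between genes. Calls required both a change of 1.5-fold or more and a p-value under 0.05 from the quasi-likelihood test of edgeR, adjusted after Benjamini and Hochberg over all genes tested and written below as the edgeR adjusted p. KMT2A had 1320, 1304 and 1256 CPM in control cells and 817, 814 and 833 CPM in MLL1 KD cells, which is 63.5% of control (log2 fold change -0.66, edgeR adjusted p = 0.0721, and 2.3e-07 with the replicate block explained next). MLLT3 fell in AF9 KD cells to 18.6% of control (log2 fold change -2.43, edgeR adjusted p = 3.2e-08). Each target also had a lower value, not called, in the other KD. KMT2A was at -0.32 in AF9 KD cells (edgeR adjusted p = 0.0200). MLLT3 was at -0.28 in MLL1 KD cells (edgeR adjusted p = 0.613, and 0.0171 with the block), where its groups overlapped. Replicate 1 of both groups of the MLL1 experiment stood apart from replicates 2 and 3, and the 2 groups deviated together in it. Replicates 2 and 3 correlated across numbers as much as within them, so how they pair is not shown. The MLL1 comparison is therefore given both without and with the replicate number as a block (a paired comparison). It is also given from replicates 2 and 3 alone. Of 15 erythroid markers, 13 were detected at a mean of at least 1 TPM in every group, while AHSP had no count in the control cells of the MLL1 experiment. Of 12 megakaryocyte markers, 9 reached that mean in every group, while GP1BB had no count in any library. The megakaryocyte markers summed to 1327 to 2599 TPM. HEL cells thus carried most markers of both sets. Of 14 granulocyte and monocyte markers, 3 to 6 reached a mean of at least 1 TPM by group, and the 14 summed to 195 to 321 TPM. Among them ELANE and PRTN3 had no count in any library.

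With lengths from merged exons, all 8 enzyme genes were expressed in control cells, from 18.6 TPM for PPOX in the MLL1 experiment to 781 TPM for CPOX in the AF9 experiment. In the control cells of the MLL1 experiment UROD was highest, at 214 ± 46.2 TPM (SD, n = 3), followed by ALAS1 at 178 ± 3.67, CPOX at 104 ± 6.57, ALAS2 at 66.0 ± 6.61, ALAD at 44.1 ± 1.43, FECH at 31.4 ± 1.86, UROS at 23.0 ± 1.85 and PPOX at 18.6 ± 4.87 TPM. Only the last 2 of these neighbours, UROS and PPOX, overlapped in their libraries. In the control cells of the AF9 experiment the order was led by CPOX, at 781 ± 74.1 TPM (SD, n = 2), then UROD at 461 ± 5.04, ALAS2 at 344 ± 1.99, ALAS1 at 120 ± 1.34, FECH at 48.6 ± 2.49, ALAD at 29.8 ± 1.01, PPOX at 29.8 ± 2.13 and UROS at 26.7 ± 1.57 TPM, with an overlap of ALAD and PPOX alone. The order thus differed between the control cells of the experiments: ALAS1 stood above ALAS2 in the MLL1 experiment and below it in the AF9 experiment. These control cells come from different experiments, and the experiment and the state of the cells cannot be told apart. The order depended on the length used, above all for UROS, UROD and PPOX, whose merged exons (9505, 4029 and 4725 bases) are much longer than their canonical transcripts (1336, 1193 and 1733 bases). With the canonical transcript lengths UROD was highest in both control groups, at 542 ± 104 and 1080 ± 12.7 TPM, and CPOX was second in the AF9 experiment, at 632 ± 60.4 TPM. On that scale UROS had 123 ± 8.72 and 132 ± 7.66 TPM, above ALAS2 in the MLL1 experiment and above ALAS1 in the AF9 experiment. PPOX was then at 38.4 ± 10.7 and 56.4 ± 3.98 TPM and FECH at 34.3 ± 2.71 and 48.8 ± 2.54 TPM, so that FECH and not PPOX had the lowest mean in the MLL1 experiment, by less than the spread of PPOX. ALAS1 was above ALAS2 in the MLL1 experiment and below it in the AF9 experiment on this scale too.

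**Figure D1:**
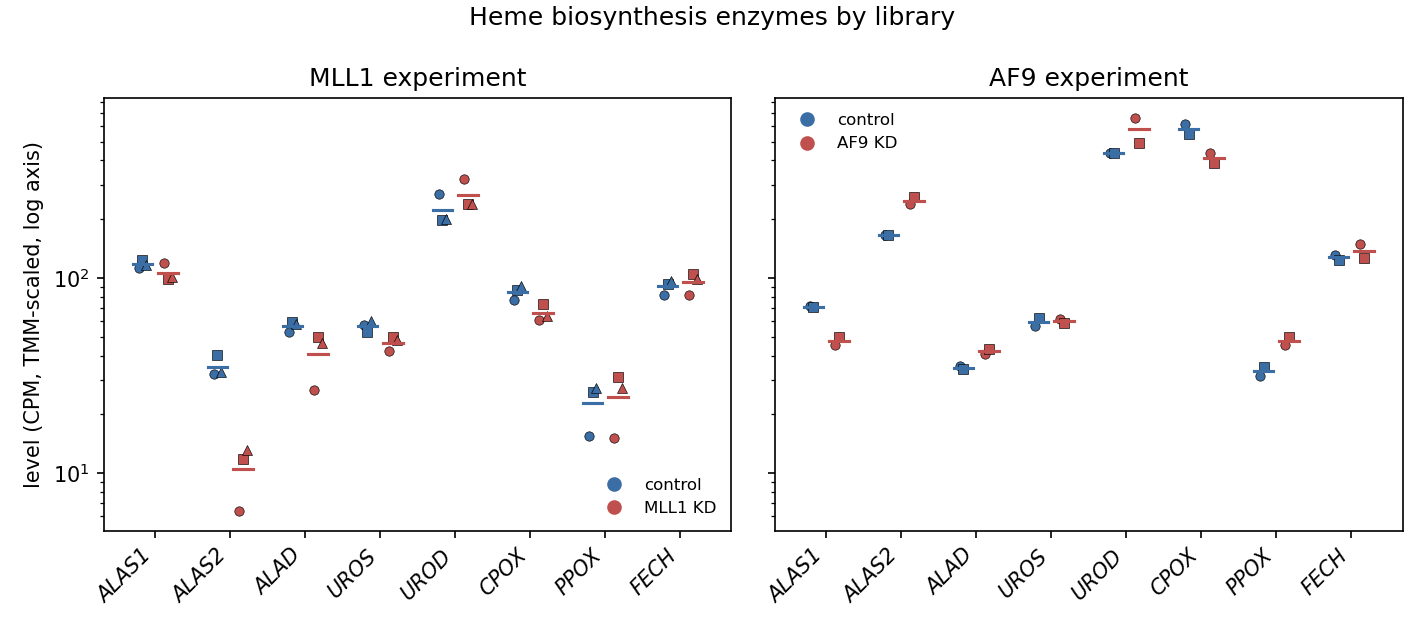
Levels of the 8 heme biosynthesis genes in CPM on a log axis, by library, in the MLL1 experiment (left, 3 against 3 libraries) and the AF9 experiment (right, 2 against 2). Circles, squares and triangles are replicates 1, 2 and 3, and bars are group means. ALAS2 lies at 6.37 to 13.2 CPM in MLL1 KD cells, below the 32.3 to 40.0 CPM of its control cells, and at 238 to 258 CPM in AF9 KD cells, above the 165 to 166 CPM of its control cells.

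MLL1 KD and control cells were compared to ask which of the enzyme genes respond to loss of MLL1. The erythroid ALA synthase showed the largest difference among the 8 genes. ALAS2 (ENSG00000158578, chrX:55009055-55030977, minus strand of hg38) stood at 32.3, 40.0 and 33.0 CPM in replicates 1, 2 and 3 of the control cells. The MLL1 KD cells had 6.37, 11.8 and 13.2 CPM in this order. Every MLL1 KD library lay below every control library, and MLL1 KD replicate 1 was the lowest. These levels rest on 250 to 288 counts per control library and 64 to 122 counts per MLL1 KD library. The mean of MLL1 KD cells, 10.4 ± 3.59 CPM (SD, n = 3), was 29.7% of the 35.1 ± 4.30 CPM (SD, n = 3) of control cells. Without the block ALAS2 did not pass the threshold, with a log2 fold change of -1.75 (SE 0.28, edgeR adjusted p = 0.100). With the replicate block it fell by 1.78 on the log2 scale (SE 0.18, edgeR adjusted p = 1.9e-06), and in replicates 2 and 3 alone by 1.54 (SE 0.16, edgeR adjusted p = 1.8e-14). The differences between same-numbered libraries were -2.30, -1.75 and -1.31 in log2 CPM. ALAS2 was the 1 member of 8 called with the block, where 4.75% of all 14396 genes tested were called, and in replicates 2 and 3 alone, where 4.86% were. Without the block edgeR called no member, where 0.0695% of all genes were called (10 genes, and 1437 genes had an unadjusted p under 0.05, among them ALAS2 and CPOX of the 8 members). DESeq2 without the block did call ALAS2 (adjusted p = 4.3e-06), as 1 of 232 genes called of 13275 (1.75%).

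ALAS1 (ENSG00000023330, chr3:52198086-52214327, plus strand), the ubiquitous ALA synthase, had 112, 123 and 117 CPM in control cells and 119, 98.5 and 101 CPM in MLL1 KD cells, so the groups overlapped (log2 fold change -0.14, SE 0.12, edgeR adjusted p = 0.789, and 0.342 with the block). In replicates 2 and 3 alone both MLL1 KD libraries lay below both control libraries, with a log2 fold change of -0.26 (SE 0.08, edgeR adjusted p = 0.0060). The value of ALAS1 thus depended on replicate 1.

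Among the cytosolic enzymes, ALAD (ENSG00000148218, chr9:113386312-113401290, minus strand), which condenses 5-aminolevulinic acid to porphobilinogen, had 52.5, 59.1 and 57.9 CPM in control cells and 26.8, 49.5 and 46.5 CPM in MLL1 KD cells. All MLL1 KD libraries were below the control libraries, and replicate 1 was farthest below. The log2 fold change was -0.47 (SE 0.23, edgeR adjusted p = 0.575), and with the block ALAD fell by 0.51 (SE 0.13, edgeR adjusted p = 0.0126), short of the 1.5-fold threshold. Without replicate 1 of both groups it was -0.29 (edgeR adjusted p = 0.0491). UROS (ENSG00000188690, chr10:125784980-125823258, minus strand), which closes the porphyrin ring, had 57.3, 52.7 and 59.8 CPM in control cells and 42.1, 49.5 and 48.1 CPM in MLL1 KD cells, again without overlap (log2 fold change -0.28, SE 0.13, edgeR adjusted p = 0.555, and 0.0880 with the block). In replicates 2 and 3 alone UROS was at -0.21 (SE 0.11, edgeR adjusted p = 0.190). UROD (ENSG00000126088, chr1:45010950-45015575, plus strand), which decarboxylates uroporphyrinogen, was higher in MLL1 KD cells within each replicate number, at 270, 197 and 200 CPM in control cells and 319, 238 and 239 CPM in MLL1 KD cells. Its groups overlapped, since replicate 1 was high in both. The log2 fold change was 0.26 (SE 0.18, edgeR adjusted p = 0.720), and with the block UROD rose by 0.26 (SE 0.07, edgeR adjusted p = 0.0200). Without the block its value moved when replicate 1 was left out of 1 group only. It was 0.10 without that replicate of MLL1 KD cells and 0.42 without that of control cells. In replicates 2 and 3 alone, with replicate 1 left out of both groups, it was 0.26 (SE 0.06, edgeR adjusted p = 2.3e-04).

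Of the mitochondrial enzymes that end the pathway, CPOX (ENSG00000080819, chr3:98579446-98593648, minus strand), the coproporphyrinogen oxidase, had 76.8, 86.6 and 91.0 CPM in control cells and 61.1, 73.4 and 63.5 CPM in MLL1 KD cells, without overlap. Its log2 fold change was -0.36 (SE 0.13, edgeR adjusted p = 0.414), and with the block CPOX fell by 0.36 (SE 0.10, edgeR adjusted p = 0.0157). In replicates 2 and 3 alone it was at -0.38 (SE 0.09, edgeR adjusted p = 5.5e-04), also short of 1.5-fold. Of the 31-base stretches of its transcript, 5.00% also occur in an overlapping readthrough gene. PPOX (ENSG00000143224, chr1:161166056-161178013, plus strand), the protoporphyrinogen oxidase, had 15.5, 26.0 and 27.4 CPM in control cells and 15.0, 31.1 and 27.3 CPM in MLL1 KD cells. FECH (ENSG00000066926, chr18:57544377-57586732, minus strand), the ferrochelatase, had 82.1, 93.4 and 96.5 CPM in control cells and 82.0, 104 and 98.6 CPM in MLL1 KD cells. In both genes the groups overlapped, replicate 1 was low in both groups, and neither passed the test (edgeR adjusted p = 0.968 for PPOX and 0.937 for FECH, 0.803 and 0.718 with the block, and 0.627 and 0.481 in replicates 2 and 3 alone).

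At an adjusted p under 0.05 and any fold, 4 of the 8 members passed with the block (ALAS2, ALAD and CPOX lower, UROD higher), where 13.6% of all genes did. In replicates 2 and 3 alone 5 passed, with ALAS1 lower as well, beside 2634 of 14340 genes. Without the block 0 passed in edgeR, beside 10 of 14396 genes. The MLL1 KD libraries did not overlap the control libraries in 4 of the 8 members (ALAS2, ALAD, UROS and CPOX, all lower), beside 17.9% of all genes tested. For each of these 4 the two-sided exact permutation test gave p = 0.1, the smallest that 3 against 3 libraries allow. The median log2 fold change of the 8 members was -0.21 without the block and -0.22 with it, beside 0.01 and 0.0023 over all genes tested. Erythroid markers summed to 2823 to 2974 TPM in control cells and 3014 to 3073 TPM in MLL1 KD cells. Of the 13 tested, 6 had positive values with the block (median log2 fold change -0.080), and 3 rose and 3 fell at any fold. With the block 1 of the 13 erythroid markers tested was called, beside 4.75% of all genes. It was SPTB (log2 fold change -0.92, edgeR adjusted p = 1.1e-06), the erythroid β-spectrin. Of 9 megakaryocyte markers tested, 3 were called with the block, beside the same 4.75% of all genes. PF4 and THBS1 were higher (log2 fold changes 1.19 and 1.99) and TUBB1 was lower (-1.02). All 3 were also called in replicates 2 and 3 alone and not in the fit without the block. The megakaryocyte markers summed to 2297 to 2599 TPM in control cells and 2022 to 2329 TPM in MLL1 KD cells. Myeloid markers summed to 278 to 321 TPM in control cells and 195 to 256 TPM in MLL1 KD cells, while none of the 6 tested was called, 3 of them had positive values, and SPI1 was the 1 that fell at any fold (log2 fold change -0.50 with the block). The part of these markers in the enzyme values was not tested. In bulk RNA, fewer cells that express a gene and less RNA per cell cannot be told apart.

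**Figure D2:**
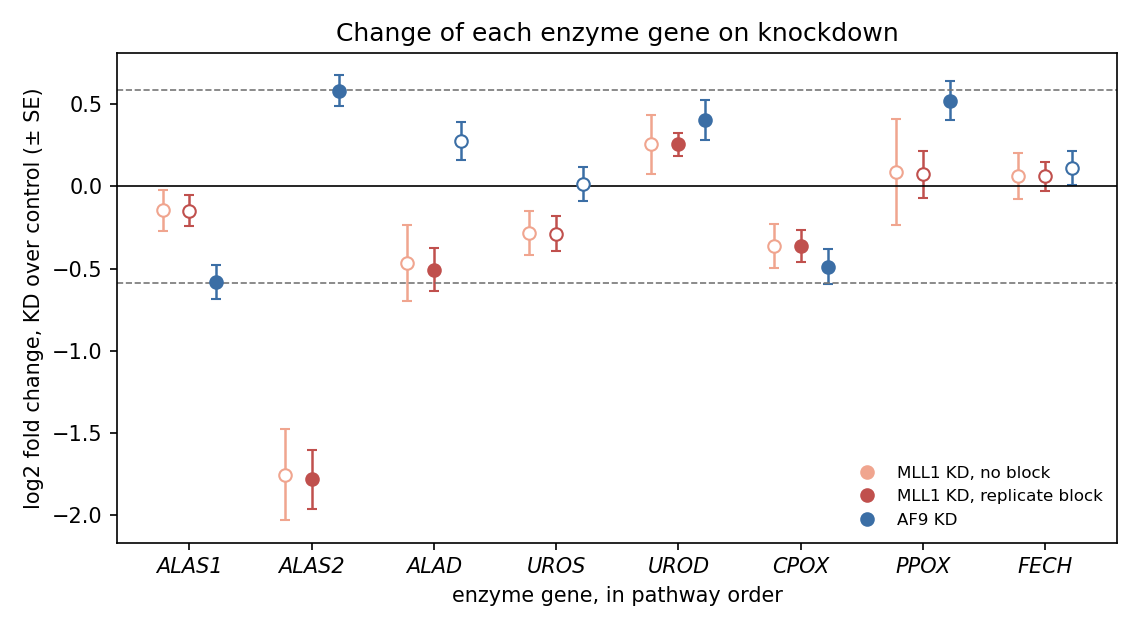
Log2 fold change of each heme biosynthesis gene, KD over control cells, with the standard error, for MLL1 KD without the block (light red), MLL1 KD with the replicate block (red) and AF9 KD (blue). Filled points have an edgeR adjusted p under 0.05, and dashed lines mark 1.5-fold. ALAS2 lies at -1.78 in MLL1 KD with the block and at 0.58 in AF9 KD, and ALAS1 at -0.15 and -0.58.

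AF9 KD and control cells were compared to ask the same of AF9. The 2 ALA synthases moved in opposite directions: ALAS2 rose to 150% of control and ALAS1 fell to 66.8%, both by just under 1.5-fold. ALAS2 had 165 and 166 CPM in control cells and 238 and 258 CPM in AF9 KD cells, from at least 1976 counts per library, with a log2 fold change of 0.58 (SE 0.09, edgeR adjusted p = 6.0e-04). ALAS1 had 71.4 and 71.2 CPM in control cells and 45.5 and 49.9 CPM in AF9 KD cells, with a log2 fold change of -0.58 (SE 0.10, edgeR adjusted p = 0.0012). In both genes the libraries of a group lay close together and the groups did not overlap. Their adjusted p remained under 0.05 in all 12 alternatives, with maxima of 0.0103 for ALAS2 and 0.0076 for ALAS1, while the call at 1.5-fold changed with the setting.

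CPOX, PPOX and UROD also passed at an adjusted p under 0.05. CPOX fell from 615 and 545 CPM to 439 and 388 CPM, which is 71.3% of control (log2 fold change -0.49, SE 0.10, edgeR adjusted p = 0.0038). PPOX rose from 31.2 and 35.0 CPM to 45.2 and 49.9 CPM, which is 144% of control (log2 fold change 0.52, SE 0.12, edgeR adjusted p = 0.0053). UROD rose from 437 and 436 CPM to 662 and 494 CPM (log2 fold change 0.41, SE 0.12, edgeR adjusted p = 0.0249). The size of the UROD difference rested on replicate 1 of AF9 KD cells: it was 0.18 without that library (edgeR adjusted p = 0.0684) and 0.61 without replicate 2. Without replicate 1 of the control cells the edgeR adjusted p was 0.136 for CPOX, 0.0947 for PPOX and 0.150 for UROD, and without replicate 2 of the control cells it was 0.113 for UROD.

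The other 3 enzymes did not pass the test. ALAD had 35.3 and 34.1 CPM in control cells and 40.6 and 43.4 CPM in AF9 KD cells (log2 fold change 0.28, SE 0.11, edgeR adjusted p = 0.0863). UROS had 56.8 and 62.6 CPM in control cells and 61.9 and 58.6 CPM in AF9 KD cells (log2 fold change 0.01, SE 0.10, edgeR adjusted p = 0.934), and FECH had 131 and 123 CPM against 149 and 126 CPM (log2 fold change 0.11, SE 0.10, edgeR adjusted p = 0.447). The groups did not overlap in ALAD and did in UROS and FECH.

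No member was called in AF9 KD cells at 1.5-fold, where 13.1% of all 13333 genes tested were called (1069 higher and 675 lower). At any fold 5 of the 8 members passed (3 higher and 2 lower), beside 29.0% of all genes. The KD libraries did not overlap the control libraries in 6 of the 8 members, beside 66.0% of all genes, and 2 against 2 libraries cannot give an exact permutation p under 0.333. The median log2 fold change was 0.19 over the 8 members and 0.01 over all genes tested. Across 13043 genes the log2 fold change in AF9 KD cells had a Spearman correlation of 0.480 with the GC content of the exons, which runs from 43.2% in FECH to 56.7% in PPOX among the members. When this trend was removed by offsets, the log2 fold change was 0.43 for ALAS2, -0.63 for ALAS1, -0.41 for CPOX, 0.30 for PPOX and 0.30 for UROD, with edgeR adjusted p of 0.0016, 3.3e-04, 0.0054, 0.0310 and 0.0982. ALAS1 was then the 1 member called, beside 8.01% of all genes. Erythroid markers summed, without TMM factors, to 3684 to 3815 TPM in control cells and 3872 to 4064 TPM in AF9 KD cells. Of the 13 tested, SPTB was called and higher (log2 fold change 0.74, edgeR adjusted p = 2.5e-04). Positive values were found in 8 of them, and at any fold 5 rose and 0 fell. Of 4 myeloid markers tested ITGAM and CEBPA were called and higher, 3 had positive values and 1 fell at any fold. THBS1 was called and higher among 9 megakaryocyte markers, of which 3 had positive values and 2 fell at any fold (median log2 fold change -0.14). Myeloid markers summed to 283 to 284 TPM in control cells and 239 to 287 TPM in AF9 KD cells. With the GC offsets SPTB (0.51) and CEBPA (1.05) were no longer called, ITGAM and THBS1 still were, and GP9, a megakaryocyte marker, was called and lower. TFRC, the transferrin receptor, was then called and higher (0.71), and the median over the erythroid markers went from 0.14 to -0.023. The part of these markers in the enzyme values was not tested.

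**Figure D3:**
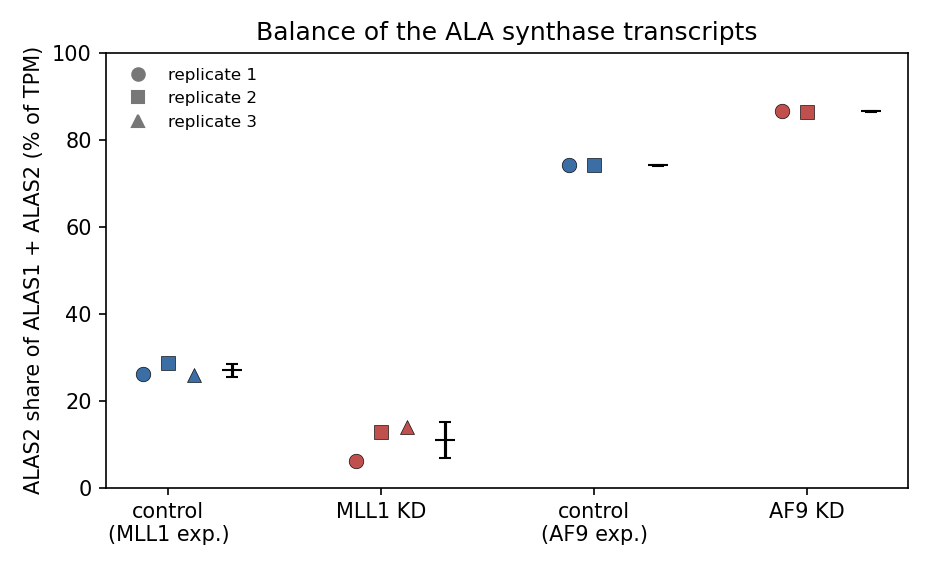
Share of ALAS2 in the summed TPM of ALAS1 and ALAS2, in percent, for each library, with the mean and SD of each group at its right. Control libraries are blue and KD libraries red. The share is 25.9 to 28.7% and 6.23 to 13.9% in control and MLL1 KD cells, and 74.1 to 74.3% and 86.5 to 86.6% in control and AF9 KD cells.

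The share of ALAS2 among the ALA synthase transcripts was lower in MLL1 KD cells and higher in AF9 KD cells than in the control cells of the same experiment. ALAS2 made up 26.2, 28.7 and 25.9% of the ALA synthase transcripts, in TPM, in the control cells of the MLL1 experiment and 6.23, 12.9 and 13.9% in MLL1 KD cells. In the AF9 experiment the share was 74.1 and 74.3% in control libraries and 86.6 and 86.5% in libraries of AF9 KD cells. The groups did not overlap in either experiment, and the share itself was not tested. Levels of single genes did not overlap for 17.9% of all genes in the MLL1 experiment and 66.0% in the AF9 experiment. The summed TPM of the 8 enzymes overlapped between control cells (662 to 713) and MLL1 KD cells (587 to 678). In the AF9 experiment it was 1980 to 2155 in AF9 KD cells and 1782 to 1898 in control cells. These sums carry no TMM factors, which were 0.968 and 0.971 in these control libraries and 1.02 and 1.04 in the AF9 KD libraries. Without the factors the median log2 fold change of all genes in the AF9 experiment was 0.098, against 0.0088 with them. A difference of the sums beyond this scaling was not tested.

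The effect of MLL1 KD minus that of AF9 KD was tested directly over all 10 libraries, each KD against the control cells of its own experiment. The experiments share no library, and the factor and the experiment cannot be told apart. For ALAS2 the difference of the log2 fold changes was -2.33 (SE 0.34, edgeR adjusted p = 0.0218). ALAS2 was the 1 member called, beside 1.34% of the 12732 genes tested. With the replicate block the difference was -2.34 (edgeR adjusted p = 1.0e-06), and without replicate number 1 of the MLL1 experiment it was -2.10 (edgeR adjusted p = 1.9e-08). Leaving out 1 library at a time gave -2.54 to -2.05 with edgeR adjusted p from 8.7e-04 to 0.230, and the call was lost in 7 of 10 cases. The call was lost without replicate 2 or 3 of the control cells or replicate 2 of the KD cells in the MLL1 experiment, and without any 1 of the 4 libraries of the AF9 experiment. For ALAD the difference was -0.73 (SE 0.32, edgeR adjusted p = 0.278), and with the block -0.77 (SE 0.19, edgeR adjusted p = 0.0086), which made ALAS2 and ALAD the 2 members called where 15.1% of all genes were. Without replicate number 1 of the MLL1 experiment it was -0.54 and below 1.5-fold. For ALAS1 the difference was 0.45 (SE 0.17, edgeR adjusted p = 0.211, and 0.0300 with the block). The other 5 enzymes gave differences of -0.43 (PPOX, SE 0.43) to 0.13 (CPOX, SE 0.19) and did not pass in either fit.

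CPOX therefore had log2 fold changes of -0.36 after MLL1 KD and -0.49 after AF9 KD, and UROD of 0.26 and 0.41, with differences of 0.13 (SE 0.19) and -0.14 (SE 0.27) between the experiments. These standard errors leave room for differences of a similar size as the effects, so equal responses are not shown.

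Heme synthesis also depends on genes that supply its substrates, move its intermediates, regulate it, break heme down and build the iron-sulfur clusters that FECH needs. Of 42 such genes on 4 lists, 40 were tested. In AF9 KD cells 5 of the 40 were called, all of them higher, beside 13.1% of all genes in both directions. ABCG2, an exporter of porphyrins, had only 25 and 10 counts in control libraries against 55 and 28 in AF9 KD libraries (log2 fold change 1.22, SE 0.42, edgeR adjusted p = 0.0450), so its value rests on few reads. LONP1, a mitochondrial protease that degrades ALAS1, had 70.9 and 92.3 CPM in control cells and 123 and 124 CPM in AF9 KD cells (log2 fold change 0.60, edgeR adjusted p = 0.0023). BLVRB, a biliverdin reductase, had 106 and 124 CPM in control cells and 193 and 200 CPM in AF9 KD cells (log2 fold change 0.77, edgeR adjusted p = 1.8e-04).

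The remaining 2 serve the assembly of iron-sulfur clusters. FDXR, the ferredoxin reductase, rose by 0.96 on the log2 scale (edgeR adjusted p = 8.3e-04) and FDX2, a ferredoxin, by 0.65 (edgeR adjusted p = 0.0050). With the GC offsets ABCG2 alone of the 5 remained called (log2 fold change 1.35, edgeR adjusted p = 0.0290), and LONP1 was at 0.11. At any fold, without the GC offsets, 2 genes rose and 2 fell of 14 for supply and transport, 3 rose and 2 fell of 12 regulators, 1 of 4 rose for heme breakdown, and 2 rose and 1 fell of 10 for iron-sulfur assembly. Of all genes 29.0% passed at any fold in AF9 KD cells. The median log2 fold changes of the 4 lists were 0.10, 0.0059, 0.14 and 0.12.

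In MLL1 KD cells none of the 40 genes was called without the block by edgeR or by DESeq2. In edgeR 10 had an unadjusted p under 0.05, beside 1437 of all 14396 genes. With the block FDXR was called, where 4.75% of all genes were. FDXR fell by 0.72 on the log2 scale (SE 0.18, edgeR adjusted p = 0.0097), from 27.0, 27.1 and 29.0 CPM to 10.6, 20.8 and 21.1 CPM. In replicates 2 and 3 alone it was at -0.42 and not called. At any fold, with the block, none rose and 3 fell of 14 for supply and transport, 1 rose and 2 fell of 12 regulators, none rose and 2 fell of 4 for heme breakdown, and 2 rose and 1 fell of 10 for iron-sulfur assembly. Of all genes 13.6% passed at any fold with the block. The medians of the 4 lists were -0.11, 0.0028, -0.46 and 0.15. BLVRB was the gene of these lists whose effects differed between MLL1 KD and AF9 KD without the block, by -1.24 on the log2 scale (SE 0.25, edgeR adjusted p = 0.0478). This call was lost with GC offsets (-0.87, edgeR adjusted p = 0.152), with no filter and in at least 9 of the 10 fits with a library left out. With the block 9 of the 40 genes differed at 1.5-fold or more, 2 with a positive and 7 with a negative difference, beside 15.1% of all genes.

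**Figure D4:**
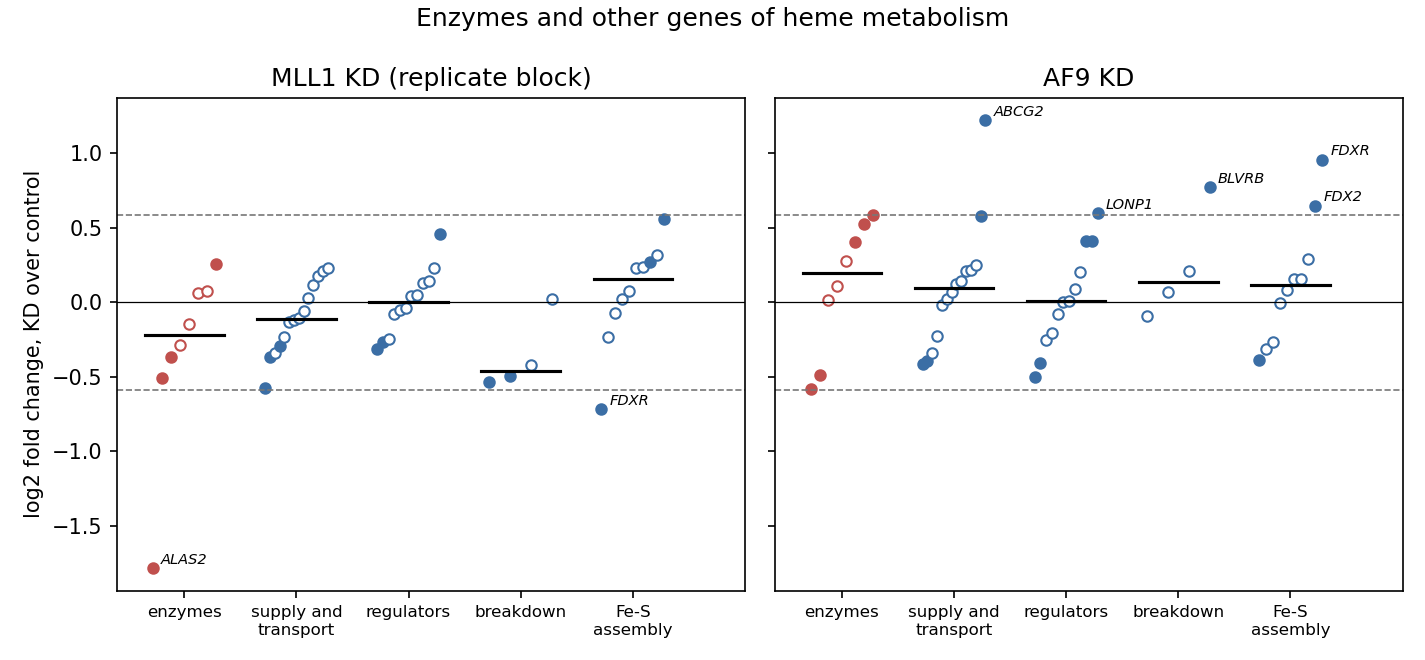
Log2 fold change of the 8 enzyme genes (red) and of the 40 tested genes of 4 other lists of heme metabolism (blue), KD over control cells, for MLL1 KD with the replicate block (left) and AF9 KD (right). Each point is a gene, filled where the edgeR adjusted p is under 0.05, bars are list medians, dashed lines mark 1.5-fold, and called genes are named. ALAS2 at -1.78 and FDXR at -0.72 are called on the left, and 5 list genes from 0.60 (LONP1) to 1.22 (ABCG2) on the right.

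Over the 10 libraries, with log2 CPM centred on the control mean of each experiment, the genes most like ALAS1 among 12732 were RBM15, EP300 and P3H1 (Pearson's r = 0.985, 0.983 and 0.977). Those most like ALAS2 were SLC44A2, PTPN9 and RSRP1 (r = 0.986, 0.985 and 0.975). These values describe 10 libraries that share batch, depth and KD group, and the genes were picked as the highest of all.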

How the data were processed

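RNA-seq of HEL cells was analysed in 10 libraries, and the other samples of the series were not analysed here. According to the labels' processing notes, the authors used fastp 0.13.1, HISAT2 2.1.0 and featureCounts 1.6.1, and the methods name hg38. They deposited raw read counts per gene symbol from stranded poly(A) libraries, without normalization. No per-sample column was left unused. Symbols were joined to GENCODE 44 (92.4% matched, of which 729 through a synonym or Ensembl ID). Reads shared with near-identical sequence can be split by the counting, and 2.79% of the 31-base stretches of FECH and 21.8% of those of KMT2A occur in other genes.

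Counts were tested with R 4.3.3 and edgeR 4.0.16 (TMM factors of 0.968 to 1.04, quasi-likelihood test, two-sided, Benjamini-Hochberg over all genes tested), fitted on each whole table, for genes with a mean of at least 1 TPM from merged exons, or 1 CPM without a length. Log2 CPM used a prior count of 2. Figures used Python 3.11.15 and matplotlib 3.10.9, with pandas 2.3.3 and numpy 2.4.6. Alternatives were DESeq2 1.42.0 and its size factors, total counts, no filter, a mean of at least 5 TPM, no fold threshold, the replicate block, GC offsets (lowess span 0.3), replicates 2 and 3 alone and each library left out. Added after seeing the data were the canonical transcript length, the difference without replicate number 1 of the MLL1 experiment, and the same alternatives for the other lists and the targeted genes. In the AF9 experiment a left-out library leaves 1 library in a group, which is assumed to vary like the other group.

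The fits without the block were run on simulated data with known changes. These counts were drawn independently for each library, without the deviation that replicate 1 of both MLL1 experiment groups shared. They therefore do not test how the fits handle it. Pairing was checked from deviations from group means: same-numbered libraries correlated at 0.648, 0.325 and 0.352 in the MLL1 experiment. Control replicate 2 with MLL1 KD replicate 3 gave 0.369, and control replicate 3 with MLL1 KD replicate 2 gave 0.359. These values set replicate 1 apart and do not show how replicates 2 and 3 pair. The block took the numbers as pairs. The chi-square of counts, divided by its degrees of freedom, was 30.2 to 56.6 between replicate 1 and the others of its group, and 2.37 and 2.66 between replicates 2 and 3.

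The named genes were the 8 members, the targeted genes, list genes called in either experiment and the 3 genes most like each ALA synthase. Marker genes were named after their values were seen. The members and lists were chosen with earlier results of these data known. The enzyme between ALAD and UROS is not reported here.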

Additional observations from a re-analysis of the deposited data

Results flagged for a closer look

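The effect on ALAS2 differed between the experiments by a test of the difference itself. The log2 fold change of MLL1 KD minus that of AF9 KD was -2.33 (edgeR's quasi-likelihood test, Benjamini-Hochberg adjusted p = 0.0218), with ALAS2 lower in 3 of 3 MLL1 KD libraries and higher in 2 of 2 AF9 KD libraries. Over 19 alternatives the adjusted p ranged from 1.9e-08 to 0.230. The gap of a single library within its group was not tested gene by gene, since groups held 2 or 3 libraries, and replicate 1 of the MLL1 experiment, which stood apart over all genes, is described with the results.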

How the results depend on the processing

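In the MLL1 experiment 0 members were called, and 1 was called (ALAS2) with no filter, DESeq2, the replicate block, GC offsets with the block and replicates 2 and 3 alone. Leaving out 1 library gave 0 to 1, and it was ALAS2 when MLL1 KD replicate 1 was left out (-1.49 on the log2 scale, edgeR adjusted p = 0.0281). ALAS2 had log2 fold changes of -1.97 to -1.49 over these fits. In the AF9 experiment 0 members were called, 1 with DESeq2, its size factors or a mean of at least 5 TPM (ALAS2), 1 with no filter, GC offsets and GC offsets with the block (ALAS1), 2 with total counts (ALAS2 and PPOX), 5 with no fold threshold and 0 to 2 with a library left out. For the difference 1 member was called, 2 with the block and with GC offsets and the block (ALAS2 and ALAD), and 0 to 1 with a library left out.

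Of the 40 other genes tested, 1 was called in MLL1 KD cells with the block, with and without GC offsets, and in AF9 KD cells 5 were called, 13 with no fold threshold, 1 with GC offsets, also with the block, and 3 to 6 with a library left out. For the difference 1 of the 40 was called, 0 with no filter or GC offsets, 5 with DESeq2 and with GC offsets and the block, 9 with the block, 8 without replicate number 1 of the MLL1 experiment and 0 to 3 with a library left out. KMT2A in MLL1 KD cells was called with DESeq2 (log2 fold change -0.65), the block (-0.66), GC offsets with the block (-0.67) and replicates 2 and 3 alone (-0.64), and had -0.68 to -0.64 with a library left out.

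Counts of all genes called moved from 10 in the MLL1 experiment to 684 with the block, 677 with GC offsets and the block, 697 in replicates 2 and 3 alone, 232 with DESeq2, 32 with no filter, 6 with total counts and 0 to 53 with a library left out. In the AF9 experiment 1744 became 1068 with GC offsets, 1157 with GC offsets and the block, 3862 with no fold threshold and 1052 to 1999 with a library left out. The higher share of its calls was 61.3%, 76.4% with total counts, 49.8% with no fold threshold and 46.1% with GC offsets. For the difference 170 became 1926 with the block, 2062 without replicate number 1 of the MLL1 experiment, 747 with DESeq2, 70 with no filter, 50 with GC offsets, 1170 with GC offsets and the block and 1 to 932 with a library left out, and total counts moved the median of all genes from -0.0094 to -0.11.

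The replicate block changed no member's call in the AF9 experiment (1744 to 1959 genes called). Its same-numbered libraries correlated at 0.156 in 2 pairs, so the pairing is not shown there.

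Members near no change reversed in sign. With a library left out PPOX ranged from -0.13 to 0.35 and FECH from -0.0070 to 0.16 in MLL1 KD cells. In AF9 KD cells UROS ranged from -0.055 to 0.085 (-0.0033 with no filter) and FECH from -0.014 to 0.23. The difference ranged from -0.34 to 0.096 for UROD (0.020 with GC offsets and the block) and from -0.16 to 0.099 for FECH. The cause was not tested.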
